A study of Mus musculus with 13 samples.

Results

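The AP-1 and EGR genes of immediate early transcription were followed in ageing jaw cartilage. The set holds 10 genes, chosen by symbol: the FOS family members Fos, Fosb and Fosl2, the JUN family members Jun, Junb and Jund, the stress-induced factor Atf3, and the zinc finger factors Egr1, Egr2 and Egr3. All 10 were found among the 18748 genes of the deposited table, and all 10 were among the 14067 genes with enough counts to be tested. RNA-seq of messenger RNA covered the mandibular condylar cartilage, the tissue capping the mandible within the jaw joint, in 6 libraries of aged mice (18 months) and 7 of young mice (2 months). Strain, sex and treatment are not given in the sources used here. Replicate numbers are all the labels give for the libraries, with no word on whether any of them share an animal. A p-value therefore measures the spread between these libraries, which may in part be technical.

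Immediate early genes are switched on within minutes of a stimulus from transcription factors that are already present in the cell, without new protein synthesis. AP-1 is a dimer of a FOS or ATF protein with a JUN protein, or of JUN proteins with each other, held together by a leucine zipper, and its composition sets which genes it activates and how strongly. EGR proteins bind GC-rich sites through zinc fingers and respond to the same kinase pathways. In the skeleton, growth factors, inflammatory signals and mechanical load induce both groups, and mice that lack Fos form no osteoclasts.

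The sequences just before the transcription start are shown for the member that rose most clearly (Junb), the member that fell (Fosl2) and the 2 members that stood far above all others in 1 library of each age (Fosb and Atf3). They are the 150 bases before the RefSeq start, 5′ to 3′ along the gene's strand, from RefSeq on GRCm38.p6, a build other than the GRCm39 named for the counts. Capitals mark matches, on either strand, to TGACG (a CREB binding site) and GCGNGGGCG (the EGR site).
Junb (chr8:84978749-84978898, - strand): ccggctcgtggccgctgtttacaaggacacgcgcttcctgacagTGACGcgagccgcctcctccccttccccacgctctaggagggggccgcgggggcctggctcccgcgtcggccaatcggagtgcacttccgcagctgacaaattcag
Fosl2 (chr5:32136322-32136471, + strand): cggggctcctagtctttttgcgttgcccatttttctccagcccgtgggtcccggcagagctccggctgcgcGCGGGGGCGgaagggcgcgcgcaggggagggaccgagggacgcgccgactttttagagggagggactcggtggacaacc
Fosb (chr7:19310046-19310195, - strand): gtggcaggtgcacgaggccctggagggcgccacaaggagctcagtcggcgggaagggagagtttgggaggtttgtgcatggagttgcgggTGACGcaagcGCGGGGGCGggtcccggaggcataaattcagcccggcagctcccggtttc
Atf3 (chr1:191183334-191183483, - strand): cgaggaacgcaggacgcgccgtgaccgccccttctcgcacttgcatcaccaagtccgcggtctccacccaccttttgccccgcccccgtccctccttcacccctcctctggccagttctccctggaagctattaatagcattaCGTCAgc

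RefSeq promoters were matched for 8 members, and none was matched for Egr1 and Egr3. Egr2 has 5 RefSeq starts, of which the middle one was used. In the 250 bases before the start, TGACG was found in 5 of the 8 (Fos, Fosb, Junb, Atf3 and Egr2), against 17.8% of the 32851 windows of the same length in the table. In Atf3 it lies on the other strand, at bases -7 to -3 counted from the start. The EGR site was found in Fosb and Fosl2, against 4.70% of all windows. The CArG box, the site of serum response factor, was found in Egr2 alone at bases -72 to -63, against 1.47% of all windows. TATAAA was found in Fos alone, against 12.4%, and the AP-1 site TGANTCA in none of the 8, against 6.75%. These matches are descriptions of letters in this window, no match overlapped another, and nothing about binding was measured.

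Library totals of the expected counts ran from 16356839 to 17876681 in aged and from 17531694 to 18203443 in young mice. The 10 cartilage markers summed to 14200 to 29000 CPM (read counts scaled to a common library size with TMM factors) in aged and 26000 to 40700 CPM in young libraries, and 5 of them fell and 3 rose. Matn1, a cartilage matrix protein named outside the rule given below and 1 of the 5 that fell, was nearly absent. It had 0 to 0.113 CPM in aged (median 0) and 0.429 to 0.877 CPM in young libraries. Markers of other cells moved with age too, and no marker of these lists was at 0 in all libraries. By the test described below, 24.7% of all tested genes rose and 21.6% fell. All 14 erythroid markers rose, with summed levels of 2000 to 14300 CPM in aged and 378 to 1510 CPM in young libraries. Of 13 neutrophil markers 11 rose (1240 to 6150 CPM in aged, 622 to 1960 CPM in young), and 16 of 18 skeletal muscle markers rose (5660 to 20200 CPM in aged, 725 to 6820 CPM in young). Of 10 osteoblast markers 8 fell and 1 rose (32100 to 46500 CPM in aged, 110000 to 134000 CPM in young, with no overlap). Of 10 osteoclast markers 7 fell and 1 rose (3090 to 5170 CPM in aged, 6870 to 8720 CPM in young). Macrophage and endothelial markers were mixed, with 5 of 10 higher and 2 lower for macrophages and 1 of 10 higher and 4 lower for endothelium. The part of these cells in the members' changes was not tested beyond the covariate fits given below. In bulk tissue, fewer cells of a type and less RNA per cell cannot be told apart.

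Per length, the members' levels spanned a wide range and kept a similar order in both ages. In TPM, the transcript share scaled for length and depth, Jund had the highest median, 149 TPM in aged and 153 TPM in young libraries, followed by Junb at 126 TPM in aged and 80.6 TPM in young. Egr1 came next in aged libraries at a median of 76.0 TPM, and stood below Fosl2 and Jun in young libraries at 41.7 TPM. Fosl2 stood at 59.7 TPM in aged and 73.1 TPM in young libraries, Jun at 49.6 and 46.7, Fos at 45.8 and 30.7, and Egr3 at 29.6 and 22.2. Atf3 (7.86 TPM in aged, 7.13 TPM in young), Egr2 (4.97 and 5.35) and Fosb (3.31 and 3.58) were the lowest. The ranges of Jund and Junb overlapped in aged libraries (139 to 164 TPM for Jund, 114 to 148 TPM for Junb) and did not in young libraries (133 to 219 TPM for Jund, 74.3 to 90.4 TPM for Junb). The JUN family made up most of the members' summed TPM, 59.3 ± 6.71% in aged (SD, n = 6) and 60.5 ± 1.87% in young libraries (SD, n = 7). The EGR family took 19.2 ± 1.47% in aged and 14.7 ± 2.00% in young libraries, and the FOS family 19.8 ± 4.91% in aged and 23.0 ± 1.64% in young libraries. These shares describe the mix of transcripts and were not tested.

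**Figure D1:**
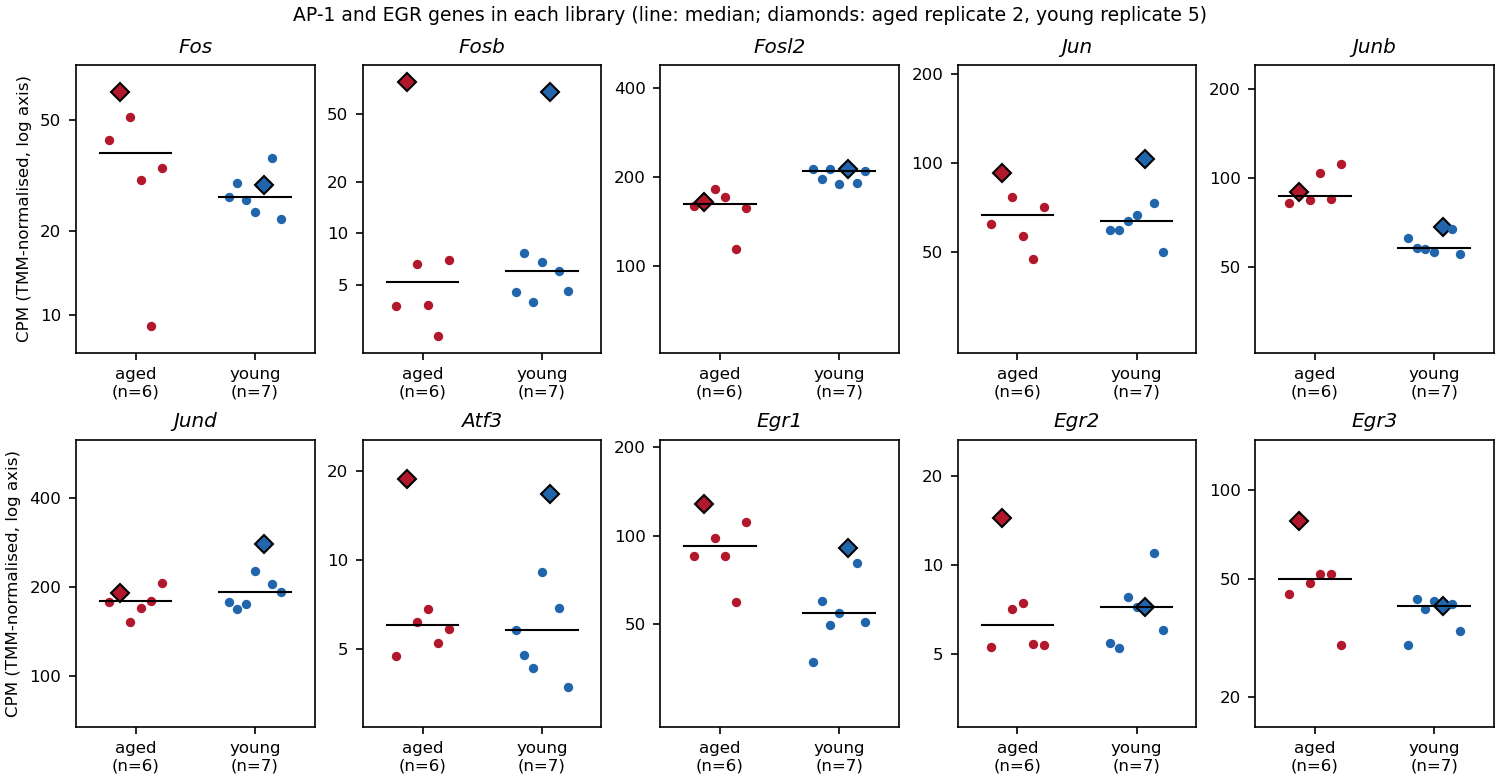
CPM of the 10 genes in each library on log axes, aged left and young right, with the median as a line and diamonds for aged replicate 2 and young replicate 5. Junb in aged libraries (82.6 to 112 CPM) lies above young (55.5 to 68.4 CPM), Fosl2 lies below, and Fosb has 1 library far above the rest in each age.

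With age, Junb and Egr1 rose by about 1.5-fold, Fosl2 fell to about 0.8 of its young level, and the other 7 members did not pass the test. Calls came from the quasi-likelihood test of edgeR, with p-values adjusted over all tested genes by Benjamini-Hochberg and a threshold of 0.05. It called 3 of the 10 members, where 46.2% of all tested genes were called: 2 higher, where 24.7% of all genes were, and 1 lower, where 21.6% were. With library sizes alone in place of TMM factors, 3 members were called higher and none lower, and over all tested genes 7034 were called higher and 1253 lower, against 3471 and 3033 with TMM. The members' median log2 fold change, aged minus young, was 0.17, against 0.01 over all tested genes. The share of members called lies below that of all genes, so the count by itself is no result about these genes.

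Junb encodes a JUN protein that activates many AP-1 sites less strongly than Jun and can oppose it. Its level had a lowest value of 82.6, a median of 87.4 and a highest value of 112 CPM in aged libraries, against 55.5, 58.1 and 68.4 CPM in young libraries. Every aged library lay above every young one. Of the 10 members, 2 had groups that did not overlap (Junb above and Fosl2 below), against 19.2% of all tested genes, of which 8.28% lay above and 10.9% below. The log2 fold change was 0.61 ± 0.08 (SE, edgeR adjusted p = 4.79e-05), a 1.53-fold rise. It stayed called in 23 of 24 alternative fits. The exception was the fit that took each library's mean level of erythroid and neutrophil markers as a covariate, which gave 0.29 (edgeR adjusted p = 0.156, against 6.95e-11 to 0.000872 over the other alternatives). That score did not overlap between the ages (5.54 to 8 in aged, 3.84 to 5.35 in young libraries, mean log2 CPM), so age and these markers cannot be told apart in that fit.

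Jund, the JUN gene that most cells express steadily, and Jun itself did not follow Junb. Jund had a lowest value of 152, a median of 179 and a highest value of 207 CPM in aged libraries, against 169, 192 and 280 CPM in young libraries, and the groups overlapped. At -0.18 ± 0.11 on the log2 scale (SE, 95% interval -0.42 to 0.06), Jund was not called (edgeR adjusted p = 0.209), and with library sizes alone its value was 0.05. Jun had 47.2, 66.5 and 92.1 CPM as lowest, median and highest values in aged libraries, against 49.9, 63.3 and 103 CPM in young libraries. Jun stood at -0.00 ± 0.17 (SE, edgeR adjusted p = 0.990), with a 95% interval from -0.37 to 0.36. The difference between Junb and its relatives was tested on the ratio of their counts within each library, which does not depend on how libraries are scaled. The log2 ratio of Junb over Jund was -0.96 ± 0.16 in aged (SD, n = 6) and -1.73 ± 0.22 in young libraries (SD, n = 7), higher in every aged library than in any young one. The difference of 0.77 had a two-sided exact permutation p = 0.000583, the smallest that 1716 splits can give, and an adjusted p = 0.00524 over the 9 ratios compared within the FOS, JUN and EGR families. Junb over Jun averaged 0.48 ± 0.38 in aged (SD, n = 6) and -0.12 ± 0.24 in young libraries (SD, n = 7; difference 0.61, exact permutation adjusted p = 0.0236), and this call was lost in 5 of 13 runs that left out 1 library (aged replicate 4 or 6, young replicate 3, 4 or 6; adjusted p of 0.0511 to 0.0682). Jun over Jund, at -1.44 ± 0.36 in aged and -1.60 ± 0.19 in young libraries, did not differ by this test (exact permutation adjusted p = 0.425). The ratios were chosen after the members' values were seen.

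**Figure D2:**
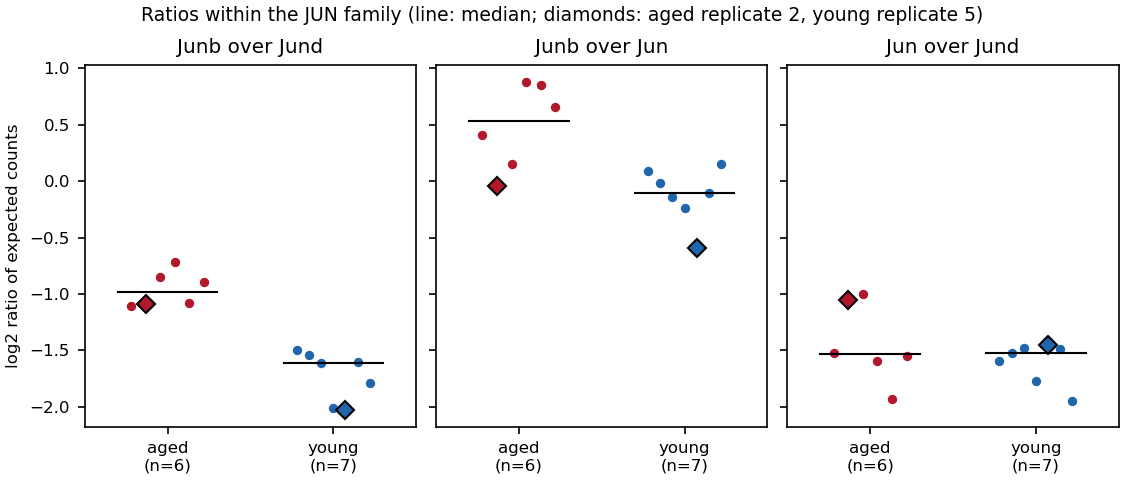
Log2 ratio of expected counts for 3 pairs of JUN family genes in each library, aged left and young right, with the median as a line and diamonds for aged replicate 2 and young replicate 5. Junb over Jund runs from -1.11 to -0.72 in aged and from -2.03 to -1.50 in young libraries, with no overlap, while Jun over Jund overlaps.

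The FOS family moved in no common direction. Fosl2, which encodes Fra-2, an AP-1 partner with known roles in cartilage and bone of mice, had a lowest value of 114, a median of 161 and a highest value of 182 CPM in aged libraries, against 189, 210 and 213 CPM in young libraries. All aged libraries lay below all young ones, and the log2 fold change was -0.37 ± 0.09 (SE, edgeR adjusted p = 0.0039). This fall depends on scaling. With library sizes alone, which moves the median of all tested genes to 0.24, Fosl2 stood at -0.14 (edgeR adjusted p = 0.213). The call was also lost with limma on FPKM (-0.16, adjusted p = 0.154). With the muscle score in the fit Fosl2 stood at -0.27 ± 0.138 (SE, edgeR adjusted p = 0.174). With that of erythroid cells and neutrophils Fosl2 stood at -0.28 ± 0.18 (SE, edgeR adjusted p = 0.289). Both gave a smaller fold with a larger error. The muscle score (mean log2 CPM) ran from 6.91 to 9.18 in aged and from 4.92 to 7.51 in young libraries, so it largely went with age.

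Fos itself spread more among aged than among young libraries. Its lowest, median and highest values were 9.16, 38.0 and 62.9 CPM in aged libraries, against 22, 26.4 and 36.4 CPM in young libraries. The lowest and the highest library of the whole series were thus both aged, and the young range lay inside the aged one. Fos was not called at 0.47 ± 0.30 on the log2 scale (SE, edgeR adjusted p = 0.225, 95% interval -0.18 to 1.13). Of 24 alternatives Fos was called in 1, without aged replicate 5, where it stood at 0.67 (edgeR adjusted p = 0.00781). Without aged replicate 2, the library with the highest Fos, it stood at 0.27 (edgeR adjusted p = 0.495). Aged replicate 5, the library with the lowest Fos, also had the lowest Fosl2 (114 CPM), Jun (47.2 CPM) and Egr1 (59.7 CPM) among aged libraries. It had the lowest summed macrophage markers of the aged libraries (859 CPM, against 1000 to 1860 CPM in the others) and the lowest summed osteoclast markers (3090 CPM, against 3720 to 5170 CPM). The part of these cells in the low Fos level was not tested.

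Fosb, known in the brain for a stable splice form that accumulates with repeated stimulation, was near 5 CPM in most libraries and more than 10 times higher in 2. Its lowest, median and highest values were 2.51, 5.22 and 77.1 CPM in aged libraries, against 3.98, 6.06 and 66.8 CPM in young libraries. The highest came from aged replicate 2 (1416 counts) and young replicate 5 (1110 counts), and all other libraries lay between 2.51 and 7.65 CPM. The groups overlapped, and Fosb stood at 0.23 ± 0.94 on the log2 scale (SE, edgeR adjusted p = 0.862) with a 95% interval from -1.79 to 2.24. Leaving out aged replicate 2 alone turned the value to -1.60 and leaving out young replicate 5 alone to 1.59, and without both it was -0.23 ± 0.271 (SE, edgeR adjusted p = 0.522).

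The stress-induced Atf3, a bZIP factor of the CREB and ATF family, had its peaks in the same libraries. It had 4.73, 6.02 and 18.8 CPM as lowest, median and highest values in aged libraries, against 3.73, 5.80 and 16.8 CPM in young libraries. The highest were again aged replicate 2 and young replicate 5, and the log2 fold change was 0.11 ± 0.40 (SE, edgeR adjusted p = 0.843). It was -0.35 without aged replicate 2 and 0.46 without young replicate 5, neither of them called.

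Egr1, the EGR gene with the highest level here and a factor that responds to loading in tendon, rose 1.56-fold. Its lowest, median and highest values were 59.7, 91.8 and 128 CPM in aged libraries, against 37.2, 54.7 and 90.8 CPM in young libraries. The groups overlapped: aged replicate 5 at 59.7 CPM lay below 3 young libraries. Young replicate 5 at 90.8 CPM also lay above aged replicate 1 (85.4 CPM) and aged replicate 4 (85.5 CPM). The log2 fold change was 0.64 ± 0.21 (SE, edgeR adjusted p = 0.0199). It kept its direction in all 24 alternatives (0.45 to 0.88) and was called in 20 of them. The call was lost without aged replicate 2 (0.54, edgeR adjusted p = 0.0525), with the muscle markers as a covariate (0.60, adjusted p = 0.206), with those of erythroid cells and neutrophils (0.45, adjusted p = 0.479) and in 1 further alternative.

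Egr3, which acts in muscle spindle and lymphocyte development, had 30.0, 50.3 and 78.7 CPM as lowest, median and highest values in aged libraries, against 29.9, 40.7 and 43.0 CPM in young libraries. Of the 6 aged libraries 5 lay above the young ones and aged replicate 6 lay among them. Egr3 was not called at 0.40 ± 0.17 on the log2 scale (SE, edgeR adjusted p = 0.0651). It was called in 5 of 24 alternatives: without aged replicate 6 (0.51, edgeR adjusted p = 0.00755), by DESeq2 (0.40, adjusted p = 0.0423), with library sizes alone (0.63, edgeR adjusted p = 0.00569) and by limma on FPKM at both pseudocounts (0.53 and 0.57, adjusted p = 0.011 and 0.0108). With the muscle markers as a covariate it stood at -0.10 (edgeR adjusted p = 0.776). Egr2, best known as the factor that drives myelination in Schwann cells, had 5.27, 6.27 and 14.4 CPM as lowest, median and highest values in aged libraries, against 5.25, 7.22 and 11 CPM in young libraries. Its log2 fold change was 0.07 ± 0.25 (SE, edgeR adjusted p = 0.838, 95% interval -0.46 to 0.60). The log2 ratio of Egr1 over Egr2 was 3.72 ± 0.44 in aged (SD, n = 6) and 3.07 ± 0.37 in young libraries (SD, n = 7), a difference that did not pass after adjustment (0.65, two-sided exact permutation p = 0.0169, adjusted p = 0.0507). It lies at the threshold. It passed with TPM in place of counts (exact permutation adjusted p = 0.0455) and without both aged replicate 2 and young replicate 5 (0.86, adjusted p = 0.0195). Of the runs that left out 1 library, it passed without aged replicate 2 or 5 or young replicate 2 or 5 (0.0265 to 0.039). In all other such runs it did not pass (exact permutation adjusted p of 0.0568 to 0.0947). Egr1 over Egr3 stood at 0.91 ± 0.56 in aged and 0.60 ± 0.33 in young libraries (exact permutation adjusted p = 0.39).

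**Figure D3:**
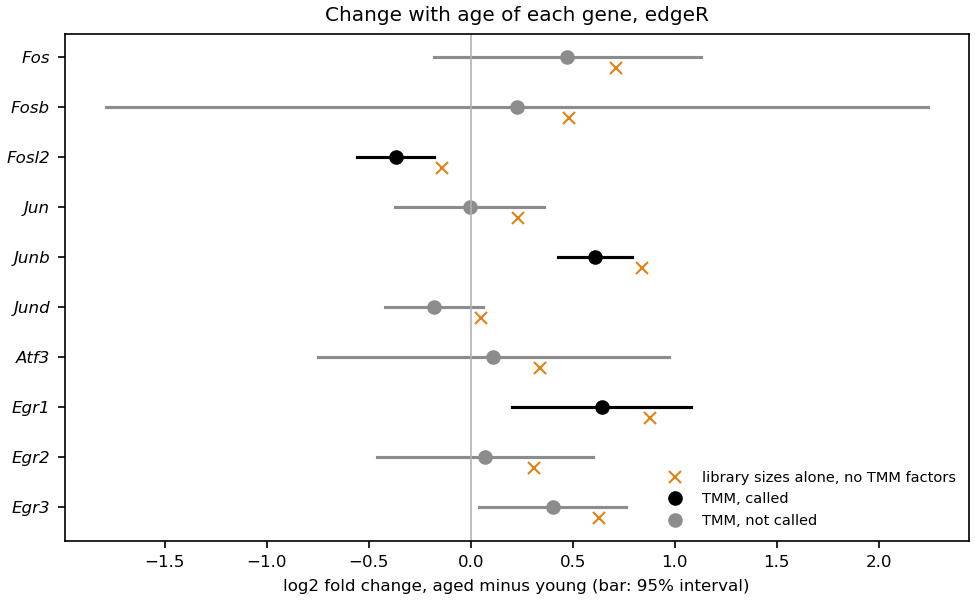
Log2 fold change, aged minus young, of the 10 genes by edgeR with TMM factors (points, black where called, with 95% intervals) and with library sizes alone (crosses). Junb and Egr1 lie above 0 in both, Fosl2 lies below 0 at -0.37 and -0.14, and the interval of Fosb runs from -1.79 to 2.24.

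The 2 libraries in which Fosb stood out, 1 of each age, also stood out for a few other immediate early genes. Aged replicate 2 had the highest level of its age for 7 of the 10 members, and young replicate 5 for 6. Over all 14067 tested genes, they had it for 2120 and 2117. Of all tested genes, 5 were at least 2-fold above the median of their age in both libraries (0.0355%). Those 5, singled out after their values were seen, were Fosb, Atf3, Nr4a1, Nr4a3 and Sirpb1c. Since Fosb and Atf3 led to these libraries, their part of all these counts is no finding. Nr4a1 and Nr4a3, orphan nuclear receptors that are themselves immediate early genes, were not used to pick them. Nr4a1 was at 116 CPM in aged replicate 2, against 25.8 to 52.1 CPM in the other aged libraries, and at 69.7 CPM in young replicate 5, against 17.1 to 28.6 CPM in the other young libraries. Nr4a3 was at 14.4 CPM in aged replicate 2, against 3.00 to 4.45 CPM, and at 7.04 CPM in young replicate 5, against 1.29 to 4.61 CPM.

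Relative to the median of its age, Fosb was 14.8-fold higher in aged replicate 2 and 11-fold in young replicate 5, and Atf3 3.12-fold and 2.90-fold. Jun was 1.38-fold and 1.62-fold higher and Egr1 1.39-fold and 1.66-fold. Egr2 (2.29-fold) and Egr3 (1.57-fold) were raised in aged replicate 2 and stood at 1.00-fold in young replicate 5, where Jund was raised instead (1.46-fold, against 1.06-fold in aged replicate 2). Fosl2 (1.02-fold and 1.01-fold) and Junb (1.02-fold and 1.18-fold) were close to the median in both. Of 51 other immediate early genes, 20 had the highest level of their age in aged replicate 2 and 25 in young replicate 5. Any other library of that age had at most 8 and 9. Of all 14067 tested genes, 2120 and 2117 were highest in these 2 libraries. The median over the 51 genes was only 1.10-fold the median of the age in both libraries. Of 10 heat shock genes, none was 2-fold raised in both, a rule that only 0.0355% of all tested genes met. Aged replicate 2 had the highest level of its age for 5 of these 10 (median 1.23-fold), and young replicate 5 for 1 (median 1.02-fold). With both libraries left out, which was decided after seeing the data, 2 members were still called higher and 1 lower: Junb at 0.65, Egr1 at 0.67 and Fosl2 at -0.36 (edgeR adjusted p = 0.000138, 0.014 and 0.0165).

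**Figure D4:**
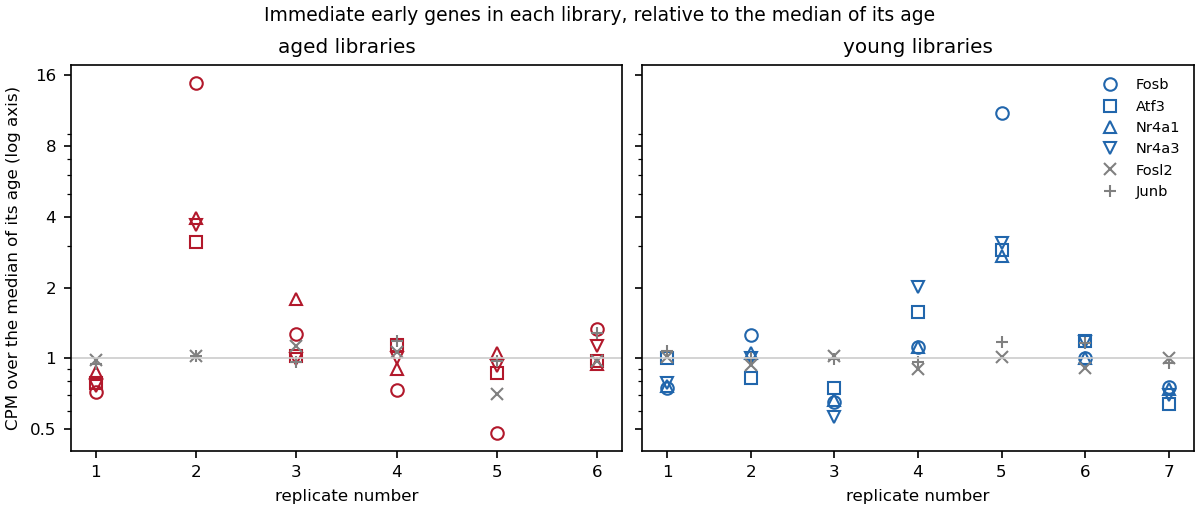
CPM divided by the median of its age on a log axis, by replicate number, for the aged libraries (left) and the young libraries (right). Fosb, Atf3, Nr4a1 and Nr4a3 lie 2.7-fold to 14.8-fold above the median in aged replicate 2 and young replicate 5, while Fosl2 and Junb (grey) stay between 1.01-fold and 1.18-fold there.

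Within an age, several members varied together from library to library. Log2 CPM values were centred on the mean of each age and compared over the 13 libraries for all 45 pairs, with permutation within age. Pearson's r was above 0 in 40 pairs, with a median of 0.47, and 7 pairs passed after adjustment, all of them positive. How often pairs of other genes vary together in these libraries was not measured, so these counts may not be particular to the members. Jun and Egr1 had r = 0.84 (permutation p = 0.00083, adjusted p = 0.0183) and rho = 0.81 (permutation p = 0.00201, adjusted p = 0.0452), with r = 0.72 without the 2 libraries farthest from the median of Jun. Within each age r was 0.95 in aged and 0.77 in young libraries. Fos and Jun had r = 0.68 (permutation p = 0.00453, adjusted p = 0.0291) and rho = 0.71 (permutation p = 0.0116, adjusted p = 0.169), with r = 0.52 without the 2 farthest libraries. Fos and Egr1 had r = 0.65 (permutation p = 0.00449, adjusted p = 0.0291) and rho = 0.66 (permutation p = 0.015, adjusted p = 0.169), and r = 0.43 without the 2 farthest.

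The other 4 pairs that passed join Fosb with Atf3, Jun and Egr1, and Jun with Atf3. Because 2 libraries form a cluster of their own for Fosb and Atf3, r is given over the other 11. There r was 0.74 for Fosb with Jun and 0.74 for Fosb with Egr1. It was 0.39 for Fosb with Atf3 and 0.48 for Jun with Atf3, so of these 4 the last 2 depended most on the 2 libraries. Without both libraries no pair passed the test, and without young replicate 5 alone none did either. Junb, which rose with age, was in no pair that passed: its r with Jun was 0.36 (permutation p = 0.254, adjusted p = 0.408) and its rho 0.37 (permutation p = 0.255, adjusted p = 0.45), and r was 0.31 without the 2 farthest libraries.

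**Figure D5:**
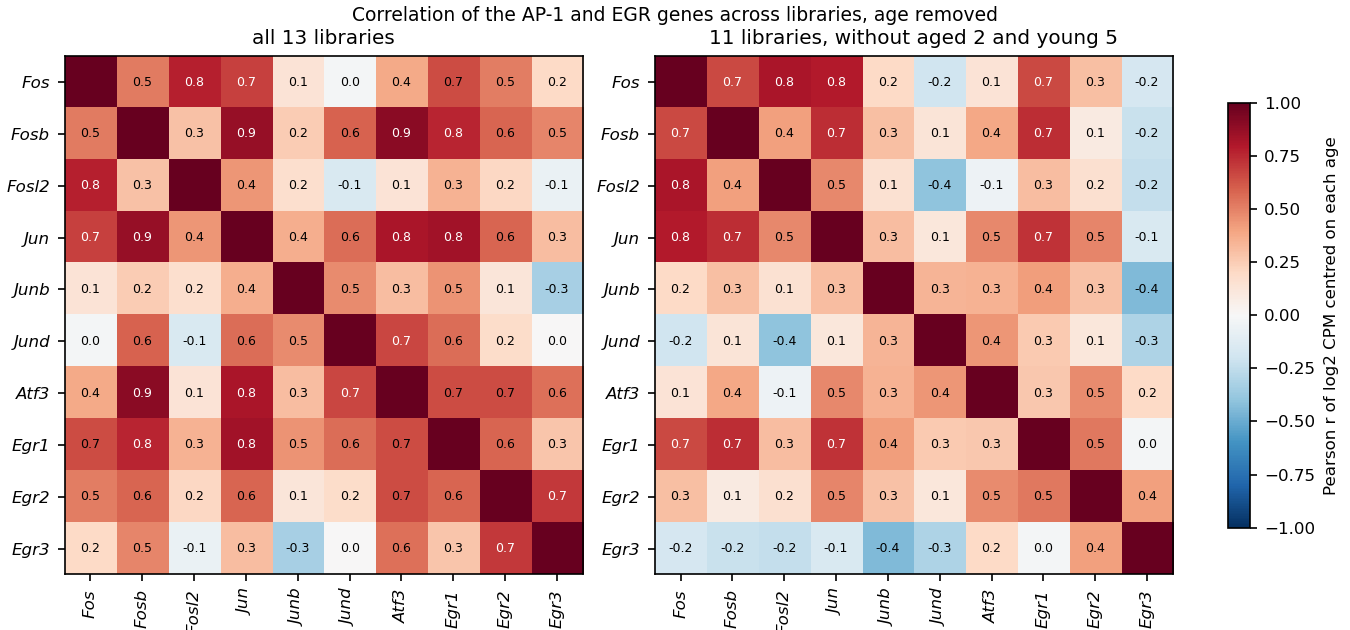
Pearson's r of log2 CPM centred on each age for all pairs of the 10 genes, over all 13 libraries (left) and over 11 without aged replicate 2 and young replicate 5 (right). Jun with Egr1 goes with r = 0.84 on the left and 0.72 on the right, and Fosb with Atf3 with 0.90 and 0.39.

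Among 11569 genes with a mean of at least 5 CPM, those most like Egr1 across the 13 libraries, with age removed, were Dusp1 (r = 0.93), Ier2 (0.86), Ptger4 (0.82), Ankrd39 (0.80) and Klf6 (0.79), members aside. Dusp1, a phosphatase that switches off MAP kinases, and Ier2 and Klf6 are immediate early genes themselves, and Ptger4 is a prostaglandin E2 receptor. Dusp1 rose with age by 1.01 ± 0.14 on the log2 scale (SE, edgeR adjusted p = 7.65e-05), with a median of 95.4 CPM in aged and 45.3 CPM in young libraries. Those named as most like Fos were others: Ptpn1 (r = 0.92), Cd68 (0.91), Ikbke (0.90) and Neu1 (0.90). Cd68 marks macrophages and osteoclasts, and Neu1 is a lysosomal sialidase. Aged replicate 2 and aged replicate 5 lie farthest from the median of Fos. Without them r was 0.82 for Ptpn1, 0.73 for Ikbke, 0.68 for Neu1 and 0.57 for Cd68. These are the highest of many values and carry no test.

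The other genes of the immediate early response were grouped by known function. Among 29 tested immediate early effectors 14 rose and 4 fell, at a median log2 fold change of 0.27, against 24.7% higher, 21.6% lower and a median of 0.01 over all tested genes. F3, which encodes tissue factor, the trigger of clotting, rose by 1.82 ± 0.21 (SE, edgeR adjusted p = 1.65e-05), with a median of 39.8 CPM in aged and 10.5 CPM in young libraries and no overlap. Dusp5, a nuclear ERK phosphatase, fell by 0.96 on the log2 scale (edgeR adjusted p = 0.00457), with a median of 2.75 CPM in aged and 5.72 CPM in young libraries. It was not called with the muscle markers (-0.38, adjusted p = 0.374) or the erythroid and neutrophil markers (-1.41, adjusted p = 0.0559) in the fit. With library sizes alone 17 effectors rose and 2 fell, where 7034 of the 14067 tested genes rose and 1253 fell. With the erythroid and neutrophil markers as a covariate, 2 effectors rose and 1 fell, at a median of 0.04. In that fit 1563 of all tested genes rose and 1329 fell.

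Of 22 other immediate early transcription regulators 6 rose and 2 fell, at a median log2 fold change of 0.19. Over all tested genes 24.7% rose and 21.6% fell, at a median of 0.01. Bhlhe40, a repressor that also acts in the circadian clock, rose by 0.97 ± 0.12 (SE, edgeR adjusted p = 1.86e-05), with a median of 220 CPM in aged and 117 CPM in young libraries and no overlap. The clock gene Per1 rose by 0.81 ± 0.25 (SE, edgeR adjusted p = 0.0178), with a median of 81.3 CPM in aged and 49.0 CPM in young libraries. Nfil3, a bZIP repressor, fell by 0.43 (edgeR adjusted p = 0.0028). Per1 was not called with either marker score in the fit (0.61 with muscle, adjusted p = 0.354, and 0.80 with erythroid cells and neutrophils, adjusted p = 0.272). With library sizes alone 10 of the 22 rose and none fell, where 7034 of the 14067 tested genes rose and 1253 fell. Nfil3 was then not called (-0.19, edgeR adjusted p = 0.127). Nfil3 was called in 19 of 24 alternatives.

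Among 16 other AP-1, ATF and MAF factors 4 rose and 4 fell, or 7 and 1 with library sizes alone. Over all tested genes 24.7% rose and 21.6% fell, and with library sizes alone 7034 of the 14067 rose and 1253 fell. The counts of this list by themselves are therefore no result about the factors. The small MAF proteins Maff and Mafk, which lack an activation domain, rose by 0.80 ± 0.10 and 0.68 ± 0.06 (SE, edgeR adjusted p = 3.09e-05 and 7.52e-07). Mafk had a median of 48.0 CPM in aged and 30.0 CPM in young libraries, and both genes kept their call in all 24 alternatives. Jdp2, a JUN-binding repressor of AP-1, fell by 0.60 on the log2 scale (edgeR adjusted p = 0.000147) and was called in 23 of 24 alternatives. Its median was 59.8 CPM in aged and 87.8 CPM in young libraries, with no overlap. Neither tested partner of the EGR proteins was called. The EGR corepressor Nab2 had a median of 61.2 CPM in aged and 75.8 CPM in young libraries (log2 fold change -0.18 ± 0.11, SE, edgeR adjusted p = 0.224), and it was called lower without aged replicate 3 (-0.28, adjusted p = 0.0253).

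Upstream of these genes, 2 of 17 SRF, CREB and MAP kinase genes rose and 6 fell, against 24.7% and 21.6% of all tested genes. The ETS factor Elk3 and the kinase Rps6ka3 fell by 0.43 and 0.37 on the log2 scale (edgeR adjusted p = 0.000234 and 0.00109). Of 24 alternatives, Elk3 was called in 23 and Rps6ka3 in 20. Rps6ka1, a kinase of the same family as Rps6ka3, rose by 1.55 ± 0.19 (SE, edgeR adjusted p = 2.24e-05), with a median of 72.1 CPM in aged and 25.6 CPM in young libraries. It stood at 0.43 once erythroid and neutrophil markers entered the fit (adjusted p = 0.152). With library sizes alone 10 of these 17 rose and 1 fell, where 7034 of the 14067 tested genes rose and 1253 fell. Rps6ka3 was then not called (-0.14, edgeR adjusted p = 0.0912). Of 9 ERK feedback genes 3 fell and 1 rose, against 21.6% and 24.7% of all tested genes. Library sizes alone gave 2 that fell and 4 that rose, against 1253 and 7034 of the 14067 tested genes. Those that fell with TMM factors include the phosphatase Dusp4 (fell by 0.67) and the ETS factor Etv4 (fell by 0.61), each called in 23 of 24 alternatives. Spry2 rose by 0.25 (edgeR adjusted p = 0.0413), a call that was lost in 15 of 24 alternatives.

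Of 13 tested genes that AP-1 is known to activate, 3 were higher and 4 lower, or 4 and 3 with library sizes alone. Over all tested genes 24.7% were higher and 21.6% lower, and with library sizes alone 7034 of the 14067 were higher and 1253 lower. The counts of this list by themselves are therefore no result about AP-1 targets. The collagenase Mmp13 fell by 1.38 and the gelatinase Mmp9, which is also an osteoclast marker, by 1.11 on the log2 scale (edgeR adjusted p = 4.05e-05 and 8.29e-06). Mmp13 had a median of 708 CPM in aged and 2060 CPM in young libraries. Hmox1, which degrades haem, rose by 0.97 ± 0.24 (SE, edgeR adjusted p = 0.00534), and stood at -0.39 once erythroid and neutrophil markers entered the fit (adjusted p = 0.538). Of 10 heat shock genes 5 rose and none fell, against the same 24.7% and 21.6% over all tested genes. All 10 rose with library sizes alone, where 7034 of the 14067 tested genes were called higher. Hspb1 and Hspa1a rose by 1.05 and 0.83 on the log2 scale (edgeR adjusted p = 0.00446 and 0.0181). No heat shock gene was called once the muscle markers entered the fit, where 1941 of all tested genes rose and 1716 fell. The median log2 fold change of the 10 was 0.24 in that fit, against 0.30 without the score. The muscle score largely went with age, and its part in the heat shock rise was not tested further.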

How the data were processed

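RNA was isolated with TRIzol, captured on oligo(dT) beads and sequenced as paired, strand-specific reads on a DNBSEQ instrument, per the labels' protocols. The submitters' processing notes name HISAT2 2.1.0, Bowtie2 2.3.4.3, RSEM 1.3.1, DESeq2 1.4.5 and the build GRCm39, with no roles. No source used here states which annotation was counted. The authors deposited expected counts for each library, per the file headers, of which 5.3% were not whole to within 1e-06. The same deposited table holds FPKM and TPM values, which the authors normalised for length and depth.

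Rounded expected counts entered edgeR 4.0.16 under R 4.3.3 (filterByExpr with minimum count 10 and total 15, TMM, robust quasi-likelihood test, Benjamini-Hochberg adjustment over 14067 genes). The SE is the log2 fold change divided by the square root of F. Correlations used log2 CPM with a prior count of 2 and 100000 permutations within age, two-sided. Family ratios used two-sided exact permutation over all splits. Alternatives used limma 3.58.1 and DESeq2 1.42.0, and figures matplotlib 3.10.9. The fit was tested on simulated data. Each member had at least 45 counts in every library.

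Members and lists were chosen with earlier results of these data known. Named were the members, the 2 called genes of each list with the largest change in its main direction and the largest in the other (or, with none called, the one with the highest level), and the 5 genes most like Fos and Egr1. Genes outside this rule are named as such, and 2 genes within it are not reported here.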

Additional observations from a re-analysis of the deposited data

Results flagged for a closer look

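A sample far from the rest of its group was found in 7 of 62 groups examined, where chance gives about 1 in 20 for independent groups. These groups are genes measured in the same 13 libraries, so setting the 2 rates side by side is no test. Of the 7 flagged samples, 5 were aged replicate 2 or young replicate 5, already picked out above for Fosb and Atf3. Fosb was at 77.1 CPM in aged replicate 2 (the other aged libraries held 2.51 to 6.95) and at 66.8 CPM in young replicate 5 (the other young libraries held 3.98 to 7.65). Atf3 was at 18.8 CPM in aged replicate 2 (others 4.73 to 6.87) and at 16.8 CPM in young replicate 5 (others 3.73 to 9.10). Egr2 was at 14.4 CPM in aged replicate 2 (others 5.27 to 7.43). Fosl2 was low in aged replicate 5 at 114 CPM (others 157 to 182), and Dusp5 was high in aged replicate 1 at 5.52 CPM (others 1.79 to 2.96).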

How the results depend on the processing

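Of the 10 members, 2 were called higher and 1 lower. Leaving out 1 library at a time gave 1 to 3 higher (1 without aged replicate 2) and 1 lower throughout. None was called lower, that is 0, with library sizes alone, with limma on log2(FPKM + 1) or log2(FPKM + 0.1), or with the muscle score. The muscle score left 1 higher and that of erythroid cells and neutrophils 0. Replicate numbers were not taken as pairs, since the labels give them no meaning and 1 of 6 same-numbered pairs deviated the other way (r = -0.12). The other 5 had r of 0.11 to 0.26, and only 2 of 6 aged libraries correlated best with the young library of their number. With the replicate block 1 member was called higher, and the calls of Egr1 (0.63, adjusted p = 0.0562), Per1 (0.83, adjusted p = 0.068), Hspa1a (0.72, adjusted p = 0.117) and Spry2 (0.23, adjusted p = 0.118) were lost, of the genes named. Jund was called lower with that of erythroid cells and neutrophils (-0.62, adjusted p = 0.0368). Of the 117 genes of the other lists 35 were called higher and 23 lower. These became 62 and 9 with library sizes alone, 57 and 10 with limma at either pseudocount, 20 and 13 with the muscle score, and 12 and 10 with the blood cell score (erythroid and neutrophil markers). Over all tested genes 3471 and 3033 became 7034 and 1253 with library sizes alone, 6250 and 1361 or 6234 and 1366 with limma, 1941 and 1716 with the muscle score, and 1563 and 1329 with the blood cell score. Of the called genes named, Hmox1 alone changed sign, to -0.39 with that score. The 7 pairs that varied together became 2 with Spearman's rho, 0 to 8 with 1 library left out (0 without young replicate 5, 3 without aged replicate 2, 4 without aged replicate 4 or young replicate 7), and 0 without aged replicate 2 and young replicate 5. The order of levels was the same in FPKM. The causes were not tested.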
